A study of Caenorhabditis elegans with 12 samples.

Results

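The nematode-specific peptide families nspa to nspe are 5 gene families of Caenorhabditis elegans that encode very short proteins. Members were taken as every identifier of the gene count table whose WormBase name on the WBcel235 assembly begins with nspa-, nspb-, nspc-, nspd- or nspe-. This gave 64 of 46653 identifiers, namely 12 nspa, 12 nspb, 20 nspc, 12 nspd and 8 nspe genes, of which 58 are annotated as protein-coding and 6 as pseudogenes. The measurement was strand-specific RNA sequencing of ribosomal-RNA-depleted total RNA from whole young adult worms. There were 12 libraries, from 3 populations each of the double mutants age-1(hx546); rde-4(ne301), the single mutants age-1(hx546) and rde-4(ne301), and N2 wild type (WT). Because each library pooled whole animals, fewer cells of a type and less RNA per cell cannot be told apart. The comparisons ask how these genes respond to loss of RDE-4, to reduced insulin/IGF-1 signaling and to both.

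The family names are gene classes of WormBase and do not give a shared function. The group D peptides are known from C. elegans sperm, where they belong to the contents of the membranous organelles, vesicles that fuse with the cell surface when a sperm becomes motile. Hermaphrodites make sperm in late larval life and then switch to oocytes, so transcripts of spermatogenesis are carried into young adulthood to an extent that depends on stage and on the number of germ cells that made sperm. RDE-4 is a double-stranded RNA binding protein that works with Dicer in making small interfering RNAs, and AGE-1 is the catalytic subunit of the phosphoinositide 3-kinase in the insulin pathway. Major sperm proteins (MSPs) are the small cytoskeletal proteins on which nematode sperm crawl and are also a signal from sperm to oocytes.

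The library totals lay between 74501098 and 82446102 counts, and the 64 genes together took 0.0113% to 0.0489% of them. Levels are given as CPM, the counts relative to the library total after scaling by TMM, which adjusts for library composition. rde-4 itself had 25.4, 29.2 and 29.8 CPM in double mutants and 31.5, 28.7 and 32.0 CPM in rde-4 mutants, against 149, 138 and 149 CPM in age-1 mutants and 201, 164 and 176 CPM in WT, so the labels and this transcript agree. The age-1 transcript was not used as a check of the age-1(hx546) label, since nothing in the sources used here says that the allele changes its level. Replicate 1 of the double mutants stood apart from the other 11 libraries: its 18 oocyte markers summed to 6924 CPM, its 6 vitellogenin genes to 3150 CPM and its 12 germ cell markers to 1621 CPM, each the lowest sum of the 12 libraries. It also held the highest nspd and nspe sums, and calls of members or family sums that change when it is left out are given with and without it.

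The families differ in structure and place. The genes nspa-1 to nspa-7 are single-exon models of 105 bp within 12.8 kb of chromosome V (14878348 to 14891186), and nspa-8 lies at 14826948 on the same chromosome. The nspd genes are single-exon models too, 213 to 222 bp long for the 9 that passed the filter on low counts, and those 9 are scattered over chromosomes I, II, III and IV. The nspc genes form 3 runs on the X chromosome: nspc-1 to nspc-7 (8534672 to 8542283), nspc-8 to nspc-15 (12342289 to 12361159) and nspc-16 to nspc-20 (14523575 to 14530207), with 2 exons in each of the 18 coding members. The 8 nspe genes lie within 16.9 kb of chromosome II (12612518 to 12629384), and the nspb genes are spread over chromosomes II, III and IV.

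Reads may not have been assigned equally well to every member. The Ensembl annotation gives 1 name to nspa-1 and nspa-3, 1 to nspa-4 and nspa-5, 1 to nspa-6 and nspa-7, and 1 to nspc-2 and nspc-6, and how the counting treated reads that fit several places is not given in the sources used here. The ratio of nspa-1 to nspa-3 counts lay between 0.875 and 1.10 in all 12 libraries and that of nspa-6 to nspa-7 between 0.80 and 1.16, so within each of these pairs the counts ran almost alike. The ratio of nspa-5 to nspa-4 behaved otherwise. It was 5.04, 3.80 and 2.51 in double mutants, 9.02, 5.60 and 5.83 in age-1 mutants and 4.62, 1.71 and 1.45 in rde-4 mutants, against 1.75, 0.956 and 1.04 in WT. Because copies may share reads, sums over each family are reported beside the single genes.

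Of the 64 members, 45 passed the filter on low counts: 8 nspa, 4 nspb, 18 nspc, 9 nspd and 6 nspe genes. Another 7 members had 0 counts in all 12 libraries (nspa-9, nspa-10, nspa-12, nspb-7, nspc-11, nspd-12 and nspe-8), and the other 12 had too few counts to be tested, among them the pseudogenes nspa-11, nspc-8 and nspd-11. Of the 45 that passed, 39 exceeded the cutoff in at least 1 library of every strain and 28 in all 12 libraries, so 6 owed their place to some strains alone. Counts over the 45 therefore describe the genes that could be tested and not the families as a whole.

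The nspd genes held most of the reads, 73.5% of all counts of the 5 families, followed by nspc with 19.5%, nspa with 4.05%, nspe with 2.81% and nspb with 0.168%. Per kilobase of exon the highest mean levels were those of nspd-2 at 195 CPM per kb and nspd-1 at 177 CPM per kb, and the lowest of the 9 tested nspd genes was nspd-9 at 21.2 CPM per kb. The leading members elsewhere were nspa-5 at 35.2, nspc-20 at 25.2, nspe-1 at 18.8 and nspb-10 at 0.323 CPM per kb. The nspb genes were thus close to the limit of detection in young adults, with 457 counts over 12 members and 12 libraries.

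Summed over its members, nspd had 351, 183 and 165 CPM in double mutants, 288, 309 and 282 CPM in age-1 mutants and 286, 251 and 110 CPM in rde-4 mutants, against 68.1, 164 and 84.0 CPM in WT. All 3 age-1 libraries and all 3 double-mutant libraries lay above the highest WT library, whereas replicate 3 of the rde-4 mutants fell inside the WT range. The nspa sum was 17.99, 8.06 and 6.71 CPM in double mutants, 18.9, 23.9 and 19.1 CPM in age-1 mutants and 14.5, 12.7 and 5.82 CPM in rde-4 mutants, against 2.50, 6.67 and 3.46 CPM in WT. The order of libraries was much the same as for nspd, with age-1 mutants high and alike, WT low, and double mutants and rde-4 mutants spread between them.

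The nspc sum gave another order. It was 80.7, 49.4 and 45.6 CPM in double mutants, 67.7, 48.4 and 49.5 CPM in age-1 mutants and 45.2, 53.0 and 32.6 CPM in rde-4 mutants, against 44.7, 87.5 and 77.1 CPM in WT, and every pair of strains overlapped. The nspe sum was 20.3, 3.59 and 5.90 CPM in double mutants, 15.9, 4.02 and 17.2 CPM in age-1 mutants and 9.13, 2.17 and 3.73 CPM in rde-4 mutants, against 6.56, 3.18 and 5.45 CPM in WT. Libraries of 1 strain lay far apart: the highest library was 5.66 times the lowest in double mutants, 4.29 times in age-1 mutants and 4.21 times in rde-4 mutants, against 2.06 times in WT. The library numbered replicate 2 was the lowest in each of the 4 strains. The nspb sum was 0.577, 0.110 and 0.0721 CPM in double mutants, 0.383, 0.257 and 0.683 CPM in age-1 mutants and 0.863, 0.5995 and 0.429 CPM in rde-4 mutants, against 0.583, 0.768 and 0.585 CPM in WT. All these rest on very low counts, and the highest double-mutant library, at 0.577 CPM, was level with the lowest WT library, at 0.583 CPM.

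**Figure D1:**
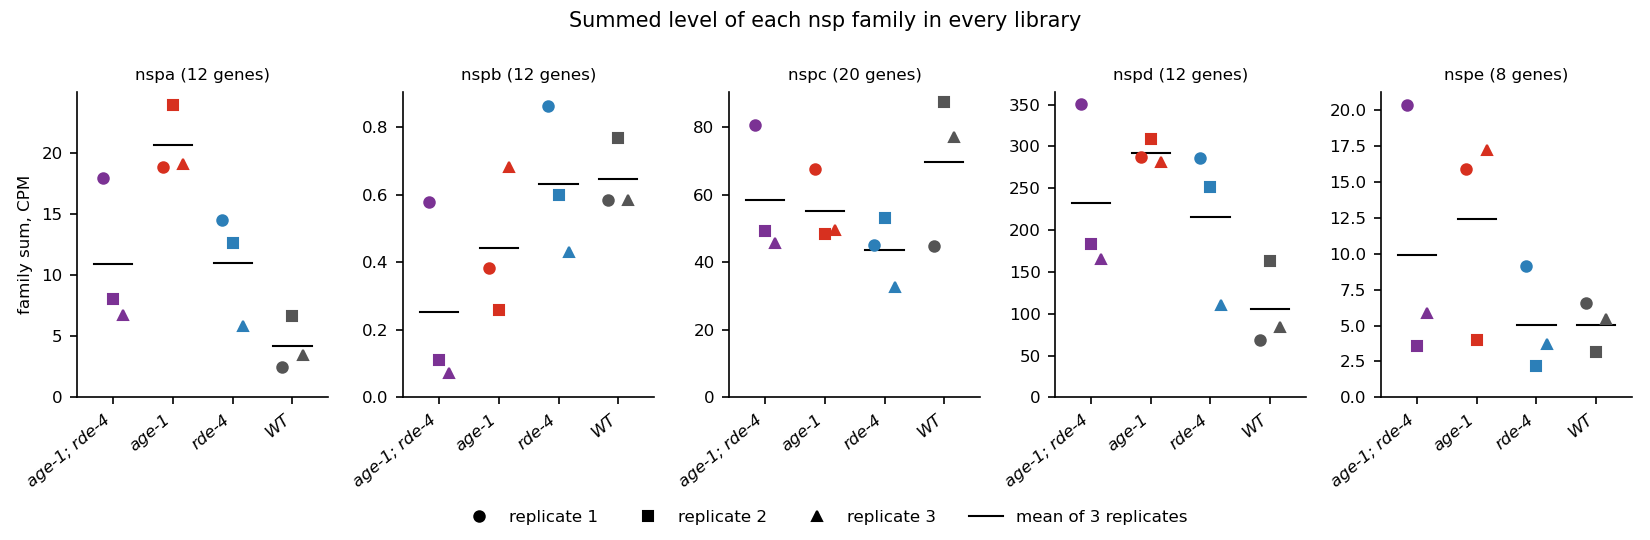
Summed CPM of each family (y axis, from 0) in every library, grouped by strain (x axis), where symbols mark the replicate number and bars the mean of 3 libraries. In the nspd panel the age-1 libraries sit between 282 and 309 CPM, above the WT libraries at 68.1 to 164 CPM, while in the nspc panel all strains overlap.

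In age-1 mutants, nspa and nspd transcripts were higher than in WT. In edgeR's quasi-likelihood test, fitted to all 12 libraries and adjusted by Benjamini-Hochberg over all genes, the nspa sum rose by 2.29 on the log2 scale (SE 0.45, adjusted p = 0.0111) and the nspd sum by 1.48 (SE 0.39, adjusted p = 0.0282). The nspe sum differed by 1.29 (SE 0.69, adjusted p = 0.214), nspb by -0.55 (SE 0.65, adjusted p = 0.603) and nspc by -0.34 (SE 0.28, adjusted p = 0.426), none of which passed. These were 2 of 5 sums, where 14.7% of the rows of that table were called in this comparison. The nspd call was lost without any 1 of the age-1 libraries and without WT replicate 1 or 3 (log2 fold changes of 1.27 and 1.34 without the WT libraries), and the nspa call without WT replicate 1 or 3 (2.05 and 2.18).

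At the level of single genes, 15 of the 45 tested members were higher in age-1 mutants and 1 was lower, where 12.2% of all 16741 genes tested were called higher and 2.58% lower. All 9 tested nspd genes and 6 of 8 nspa genes made up the 15. The median log2 fold change was 2.05 over the tested nspa genes, 1.44 over nspd, 1.19 over nspe, -0.52 over nspb and -0.57 over nspc, beside 0.03 over all genes tested. The count of 15 depended on single libraries: it was 2 without WT replicate 1, 2 without WT replicate 3, and 5, 3 and 5 without replicates 1, 2 and 3 of the age-1 mutants. The share of all genes called higher fell as well in these fits, to 2.3% and 1.79% without those WT libraries and to 7.43%, 2.11% and 6.74% without the age-1 libraries. nspa-5, nspa-7 and nspc-13 kept their calls in each of the 12 fits that left out 1 library.

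The largest of these changes were in 3 nspa genes. nspa-5 had 6.31, 7.85 and 6.98 CPM in age-1 mutants, against 0.570, 0.892 and 0.651 CPM in WT, and its log2 fold change was 3.32 (SE 0.45, adjusted p = 0.00221). Its libraries in double mutants, at 6.25, 2.78 and 2.32 CPM, and in rde-4 mutants, at 4.57, 3.64 and 1.57 CPM, were also all above the WT libraries. nspa-5 is one of 3 members called against WT in all 3 mutant strains, with 2.42 in double mutants (SE 0.44, adjusted p = 0.00414) and 2.21 in rde-4 mutants (SE 0.44, adjusted p = 0.0136). The rde-4 call was lost without rde-4 replicate 1 or 2 and without WT replicate 1 or 3, with values of 1.87 to 2.56 over the 12 fits that left out 1 library. Reads of nspa-5 may be shared with nspa-4, which has the same Ensembl name. nspa-4 was not called, at 0.62 in double mutants (adjusted p = 0.410), 0.81 in age-1 mutants (adjusted p = 0.226) and 1.16 in rde-4 mutants (adjusted p = 0.223). The part of read sharing in the nspa-5 changes was not tested.

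The pair nspa-6 and nspa-7, whose reads may be shared, was near the limit of detection in WT. nspa-7 had 0.810, 0.231 and 0.228 CPM in double mutants, 1.03, 1.36 and 1.16 CPM in age-1 mutants and 0.724, 0.408 and 0.196 CPM in rde-4 mutants, against 0.0407, 0.137 and 0.0665 CPM in WT. nspa-6 had 0.810, 0.256 and 0.252 CPM in double mutants, 0.950, 1.29 and 0.928 CPM in age-1 mutants and 0.736, 0.472 and 0.196 CPM in rde-4 mutants, against 0.0407, 0.151 and 0.0665 CPM in WT. Every mutant library was thus above every WT library for both genes. Their log2 fold changes in age-1 mutants were 3.84 (SE 0.69, adjusted p = 0.00766) and 3.59 (SE 0.68, adjusted p = 0.00961), in that order of nspa-7 and nspa-6, and both were also called in double mutants at 2.36 (adjusted p = 0.0407) and 2.33 (adjusted p = 0.0412). Each double-mutant call held in only 5 of the 12 fits that left out 1 library, and without replicate 1 of the double mutants nspa-7 was at 1.48 (adjusted p = 0.175) and nspa-6 at 1.55 (adjusted p = 0.167). In rde-4 mutants both stood at 2.42 and missed the threshold (adjusted p = 0.0685 for nspa-7 and 0.0659 for nspa-6), whereas both passed it at 2.44 without replicate 1 of the double mutants (adjusted p = 0.0312 and 0.0355).

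The other 3 nspa genes called in age-1 mutants changed less. nspa-1 had 4.12, 1.66 and 1.18 CPM in double mutants, 4.30, 5.24 and 3.81 CPM in age-1 mutants and 3.10, 2.59 and 1.18 CPM in rde-4 mutants, against 0.556, 2.03 and 0.997 CPM in WT. nspa-3, which has the same Ensembl name, had 3.89, 1.77 and 1.34 CPM in double mutants, 4.20, 4.98 and 4.08 CPM in age-1 mutants and 3.36, 2.69 and 1.24 CPM in rde-4 mutants, against 0.611, 1.98 and 0.904 CPM in WT. For both, age-1 libraries lay above the WT range and the other mutant strains overlapped it, with log2 fold changes in age-1 mutants of 1.90 (SE 0.54, adjusted p = 0.0355) for nspa-1 and 1.93 (SE 0.50, adjusted p = 0.0266) for nspa-3. nspa-8, which lies opposite the coding gene W06A7.4, had 0.650, 0.548 and 0.348 CPM in double mutants, 1.19, 1.66 and 0.863 CPM in age-1 mutants and 0.876, 0.472 and 0.270 CPM in rde-4 mutants, against 0.326, 0.398 and 0.0931 CPM in WT. Its change in age-1 mutants was 2.18 (SE 0.56, adjusted p = 0.0261).

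The share of nspa-5 within its family separated WT from every mutant. It was 34.7%, 34.4% and 34.5% of the nspa counts in double mutants, 33.4%, 32.8% and 36.5% in age-1 mutants and 31.5%, 28.7% and 26.9% in rde-4 mutants, against 22.8%, 13.4% and 18.8% in WT. The members of the family thus did not differ from WT in 1 proportion. The shares of nspa-6 (1.63% to 2.26% in WT) and nspa-7 (1.63% to 2.06%) were also higher in every mutant library. That of nspa-3 (24.5% to 29.6% in WT) was lower in every mutant library. These shares were singled out after the values were seen and have no test. They also depend on how reads were split between genes that may share them, such as nspa-5 and nspa-4.

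The 9 tested nspd genes moved as a block in age-1 mutants, with log2 fold changes between 1.31 and 1.70 and adjusted p between 0.0241 and 0.0463. nspd-2, the most abundant, had 68.5, 34.7 and 34.5 CPM in double mutants, 59.3, 69.5 and 58.7 CPM in age-1 mutants and 51.6, 44.7 and 18.4 CPM in rde-4 mutants, against 10.5, 31.2 and 15.9 CPM in WT. nspd-1 had 66.9, 33.8 and 29.6 CPM in double mutants, 54.8, 53.6 and 48.8 CPM in age-1 mutants and 47.3, 41.01 and 17.3 CPM in rde-4 mutants, against 13.6, 28.4 and 16.1 CPM in WT. In both genes the highest WT library, replicate 2, was about as high as the lower double-mutant libraries and above replicate 3 of the rde-4 mutants.

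The 5 nspd genes described next followed nspd-1 and nspd-2. nspd-5 had 42.8, 21.2 and 18.9 CPM in double mutants, 33.9, 36.7 and 35.5 CPM in age-1 mutants and 31.9, 26.3 and 12.8 CPM in rde-4 mutants, against 9.28, 20.6 and 11.4 CPM in WT. nspd-7 had 31.4, 16.7 and 16.3 CPM in double mutants, 31.6, 28.7 and 26.6 CPM in age-1 mutants and 26.3, 23.0 and 11.9 CPM in rde-4 mutants, against 8.43, 18.2 and 8.44 CPM in WT. Both were separate from WT in age-1 mutants alone. nspd-3 had 34.9, 15.5 and 14.5 CPM in double mutants, 25.4, 23.2 and 24.7 CPM in age-1 mutants and 28.0, 25.3 and 11.02 CPM in rde-4 mutants, against 5.92, 13.6 and 7.75 CPM in WT. nspd-4 had 22.7, 10.7 and 8.71 CPM in double mutants, 14.6, 14.9 and 15.9 CPM in age-1 mutants and 16.7, 14.6 and 6.71 CPM in rde-4 mutants, against 3.81, 9.12 and 4.52 CPM in WT. nspd-9, the least abundant of the 9, had 6.23, 4.51 and 3.24 CPM in double mutants, 5.96, 6.22 and 5.96 CPM in age-1 mutants and 7.99, 5.65 and 2.96 CPM in rde-4 mutants, against 1.09, 3.09 and 2.06 CPM in WT, so that nspd-9 alone among these 5 had its highest library in an rde-4 mutant.

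nspd-6 and nspd-10 departed from this pattern in opposite ways in the strains that carry rde-4(ne301). nspd-6 had 58.5, 32.4 and 29.1 CPM in double mutants, 34.0, 39.3 and 34.3 CPM in age-1 mutants and 52.5, 48.3 and 19.7 CPM in rde-4 mutants, against 7.75, 20.9 and 8.60 CPM in WT. It was the only nspd gene called in all 3 mutant strains, with log2 fold changes over WT of 1.69 in double mutants (SE 0.42, adjusted p = 0.0221), 1.53 in age-1 mutants (SE 0.42, adjusted p = 0.0327) and 1.69 in rde-4 mutants (SE 0.42, adjusted p = 0.0412). The rde-4 call was lost in 8 of the 12 fits that left out 1 library and held in 4. The double-mutant call was lost without replicate 1 of the double mutants (1.31, adjusted p = 0.0823) and without WT replicate 1 or 3. nspd-10 had 18.6, 13.6 and 10.2 CPM in double mutants, 28.2, 36.4 and 30.9 CPM in age-1 mutants and 23.4, 22.2 and 9.49 CPM in rde-4 mutants, against 7.68, 18.4 and 9.20 CPM in WT. It was called in age-1 mutants (1.44, SE 0.37, adjusted p = 0.0267), and stood at 0.26 in double mutants (SE 0.37, adjusted p = 0.694) and 0.64 in rde-4 mutants (SE 0.37, adjusted p = 0.512).

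As shares of the family, these genes split the libraries by the rde-4 allele. nspd-6 took 16.7%, 17.7% and 17.6% of nspd counts in double mutants, against 11.8%, 12.7% and 12.2% in age-1 mutants, and 18.4%, 19.2% and 17.9% in rde-4 mutants, against 11.4%, 12.8% and 10.2% in WT. nspd-10 took 5.29%, 7.41% and 6.16% in double mutants, against 9.79%, 11.8% and 10.98% in age-1 mutants, and 8.21%, 8.82% and 8.60% in rde-4 mutants, against 11.3%, 11.3% and 10.9% in WT. The 6 libraries with rde-4(ne301) did not overlap the 6 without it in either share. The ratio of nspd-6 to nspd-10 counts was 3.15, 2.39 and 2.86 in double mutants, against 1.21, 1.08 and 1.11 in age-1 mutants, and 2.24, 2.18 and 2.08 in rde-4 mutants, against 1.01, 1.14 and 0.935 in WT. A ratio within a library does not depend on its depth. The pair was picked after the values were seen, so no test is attached. nspd-3, which lies next to nspd-6 on chromosome IV, took 7.51% to 10.1% of the counts in every library. Its share overlapped between double mutants and age-1 mutants. In rde-4 mutants, at 9.79%, 10.1% and 9.98%, it lay above WT, at 8.68%, 8.31% and 9.22%. The shares of nspd-1, nspd-4 and nspd-5 also did not overlap between rde-4 mutants and WT.

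**Figure D2:**
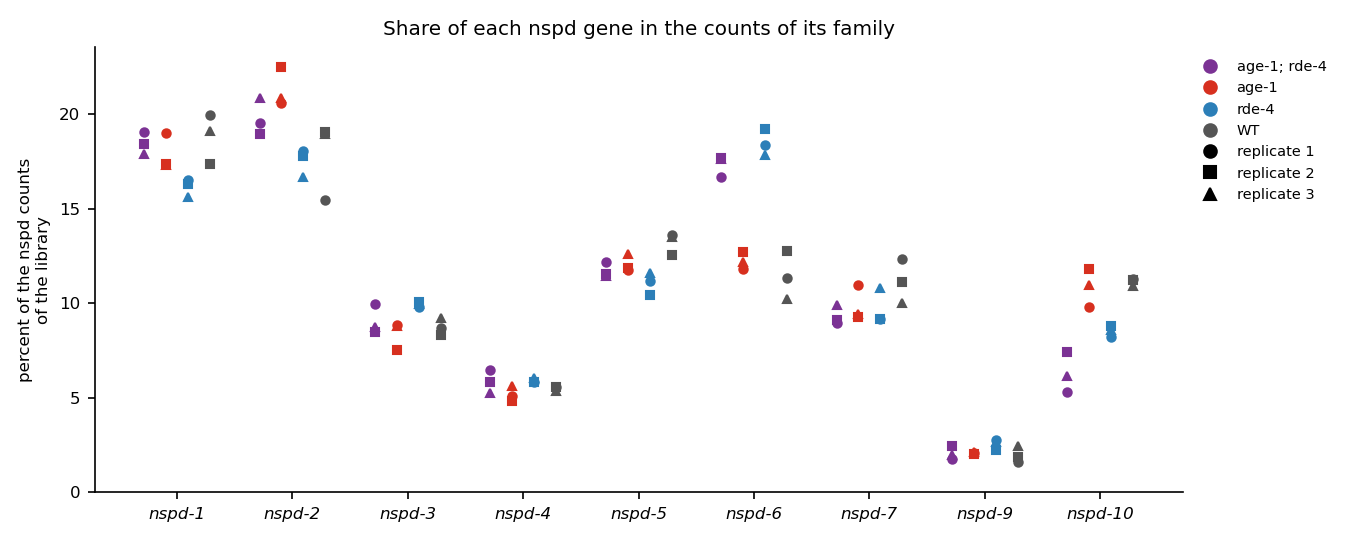
Percent of a library's nspd counts (y axis, from 0) taken by each of the 9 tested nspd genes (x axis), with strains by color and replicates by symbol. nspd-6 lies at 16.7% to 19.2% in the 6 libraries with rde-4(ne301) and at 10.2% to 12.8% in the other 6, whereas nspd-10 lies at 5.29% to 8.82% and at 9.79% to 11.8%.

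In rde-4 mutants, 2 of the 45 tested members were higher than in WT, nspa-5 and nspd-6, and 1 was lower, nspc-13, where 3.63% of all genes tested were called higher and 0.866% lower. None of the 5 family sums was called by edgeR, in a table where 4.48% of rows were, while DESeq2 called 1. The nspa sum differed by 1.39 (SE 0.44, adjusted p = 0.116) and the nspd sum by 1.04 (SE 0.39, adjusted p = 0.202), the nspc sum by -0.68 (SE 0.28, adjusted p = 0.262), and nspb and nspe by -0.03 and -0.02 with SEs of 0.65 and 0.69. All 8 tested nspa genes and all 9 nspd genes had fitted changes above 0, with medians of 1.12 and 0.99, and all 18 tested nspc genes had fitted changes below 0, with a median of -0.74, beside -0.02 over all genes tested. At an unadjusted p under 0.05 there were 11 members higher and 4 lower, where 9.46% and 4.96% of all genes were. Replicate 3 of the rde-4 mutants, with the lowest nspd and nspa sums of that strain, weighed on these counts: without it, 6 members were called higher, and none was without replicate 1 or 2 of that strain or without WT replicate 1 or 3. The share of all genes called higher was 5.35% without rde-4 replicate 3. It was 1.59% and 1.33% without the other rde-4 libraries and 1.37% and 1.33% without those WT libraries. The count of members was 4 without WT replicate 2 or without replicate 1 of the double mutants, and 1 without replicate 2 of the double mutants or any 1 age-1 library. The shares of all genes were 5.48%, 3.85%, 2.98% and 2.86% to 3.09% in that order.

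In double mutants, 5 members were higher than in WT (nspa-5, nspa-6, nspa-7, nspd-6 and nspc-3) and 2 were lower (nspc-13 and nspc-18), where 8.95% of all genes tested were called higher and 3.17% lower. Of the 5, nspc-3 passed the filter on low counts through its double-mutant libraries alone, so its call is a description. No family sum was called by edgeR, against 12.1% of the rows of that table, and DESeq2 called 1. The nspa sum differed by 1.38 (SE 0.44, adjusted p = 0.0634), nspd by 1.15 (SE 0.39, adjusted p = 0.0757), nspe by 0.97 (SE 0.69, adjusted p = 0.403), nspc by -0.25 (SE 0.28, adjusted p = 0.6001) and nspb by -1.35 (SE 0.67, adjusted p = 0.225). Without replicate 1 of the double mutants the nspa sum was at 0.82 and the nspd sum at 0.73, the nspb sum was called at -2.81 (adjusted p = 0.0139), and 2 members were called higher and 3 lower. In that fit 6.24% of all genes were called higher and 2.16% lower. Without WT replicate 2, in turn, 12 members were called higher, 10 without rde-4 replicate 3, 3 without rde-4 replicate 2 or any 1 age-1 library, and 1 without WT replicate 1 or 3. The share of all genes called higher moved as well, to 11.9%, 10.3%, 8.24% and 7.44% to 7.75% in that order. It was 5.54% without WT replicate 1 and 4.64% without WT replicate 3. The 3 comparisons with WT share the same 3 WT libraries, so they do not bear on each other as separate evidence.

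**Figure D3:**
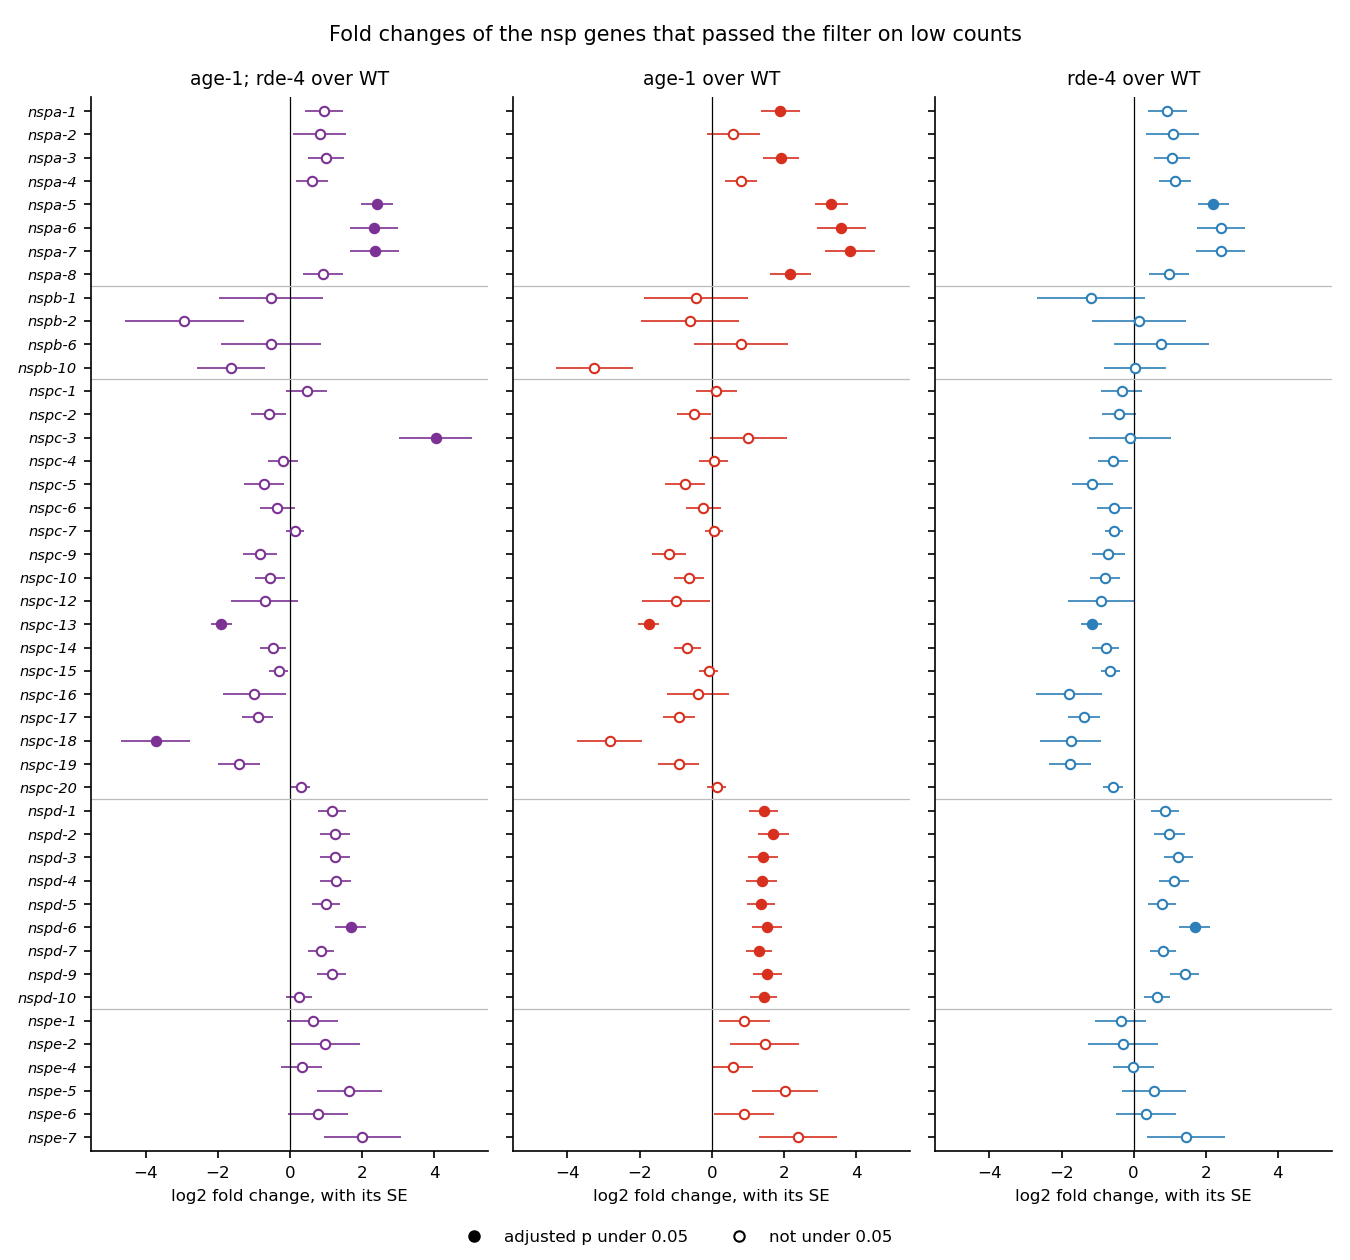
Log2 fold changes over WT (x axis) with their SE for the 45 members that passed the filter (rows, by family) in double mutants, age-1 mutants and rde-4 mutants, where filled points have an adjusted p under 0.05. All 9 nspd genes are filled in the age-1 panel at 1.31 to 1.70, and nspd-6 alone of them is filled in all 3 panels.

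In edgeR's test, nspc-13 and nspc-18 were called lower in at least 1 mutant strain and nspc-3 was called higher in double mutants. DESeq2 also called nspc-17 and nspc-19 lower in rde-4 mutants, where it called 1.79% of all genes lower, and nspc-9 and nspc-18 lower in age-1 mutants, where it called 6.64%. nspc-13, in the middle run on the X chromosome, had 0.761, 0.536 and 0.552 CPM in double mutants, 0.805, 0.579 and 0.670 CPM in age-1 mutants and 0.851, 1.24 and 0.981 CPM in rde-4 mutants, against 1.82, 2.21 and 2.86 CPM in WT. No mutant library reached the lowest WT library. It was lower in all 3 strains, with log2 fold changes of -1.89 in double mutants (SE 0.30, adjusted p = 0.00186), -1.74 in age-1 mutants (SE 0.29, adjusted p = 0.00585) and -1.16 in rde-4 mutants (SE 0.29, adjusted p = 0.0386), of which the last was called in only 1 of the 12 fits that left out a library. Its neighbours in the same run, nspc-9, nspc-10, nspc-12, nspc-14 and nspc-15, all had fitted changes below 0 in all 3 strains, and none passed edgeR's test. Without replicate 1 of the double mutants, nspc-9 did pass it in double mutants (-1.56, adjusted p = 0.0368, against -0.82 with that library) and in age-1 mutants (-1.18, adjusted p = 0.0395, against -1.19).

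The run nspc-16 to nspc-19 had low counts and lay below WT. Its summed level was 2.47, 1.13 and 1.22 CPM in double mutants, 2.74, 1.87 and 1.56 CPM in age-1 mutants and 2.46, 1.63 and 0.466 CPM in rde-4 mutants, against 5.33, 4.39 and 4.59 CPM in WT. Every mutant library was below every WT library, but this stretch was chosen after the values were seen and carries no test. Within it nspc-18 had 16, 0 and 14 counts in double mutants, 36, 6 and 10 in age-1 mutants and 74, 28 and 12 in rde-4 mutants, against 121, 123 and 115 counts in WT. It was called in double mutants (log2 fold change -3.72, SE 0.95, adjusted p = 0.0243) and missed the threshold in age-1 mutants (-2.83, SE 0.91, adjusted p = 0.0536) and in rde-4 mutants (-1.75, SE 0.86, adjusted p = 0.393). The double-mutant call was lost without replicate 3 of the double mutants and without WT replicate 1 or 3, with values of -4.24 to -3.14 over the 12 fits that left out 1 library. The libraries of WT agreed closely for this gene and those of the mutants did not.

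The last gene of that run did not share this. nspc-20, the nspc gene with the highest level, had 15.5, 9.27 and 10.4 CPM in double mutants, 10.7, 10.7 and 10.02 CPM in age-1 mutants and 6.42, 8.65 and 4.16 CPM in rde-4 mutants, against 7.35, 11.7 and 9.53 CPM in WT. nspc-7, the second in level, had 11.4, 9.89 and 9.34 CPM in double mutants, 9.91, 9.16 and 10.1 CPM in age-1 mutants and 6.35, 7.78 and 5.14 CPM in rde-4 mutants, against 5.52, 11.6 and 10.9 CPM in WT. In both genes the strains overlapped with WT, and their fitted changes over WT lay between -0.57 and 0.30 with SEs of 0.25 to 0.27.

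nspc-3 was detected in numbers only in double mutants. It had 25, 74 and 17 counts in double mutants, 4, 5 and 4 counts in age-1 mutants and 2, 0 and 4 counts in rde-4 mutants, against 0, 3 and 3 counts in WT. The double-mutant libraries did not overlap those of any other strain, and the log2 fold change over WT was 4.04 (SE 1.01, adjusted p = 0.0212), opposite in sign to that of the nspc sum. The gene passed the filter on low counts through its double-mutant libraries alone, so it was tested because it was high in that strain, and the value is a description. The call was lost without replicate 2 of the double mutants (3.17) and without WT replicate 1 or 3. The changes over age-1 mutants (3.03, SE 0.93, adjusted p = 0.218) and over rde-4 mutants (4.15, SE 1.01, adjusted p = 0.0680) missed the threshold. Such counts allow no firm size for the change, and nspc-1 and nspc-2 beside it, with 4688 and 4661 counts over the 12 libraries, were not called in any comparison. nspc-12 held 0 counts in replicate 3 of the double mutants against 141 to 461 counts in the other 11 libraries, a loss seen in that library alone.

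**Figure D4:**
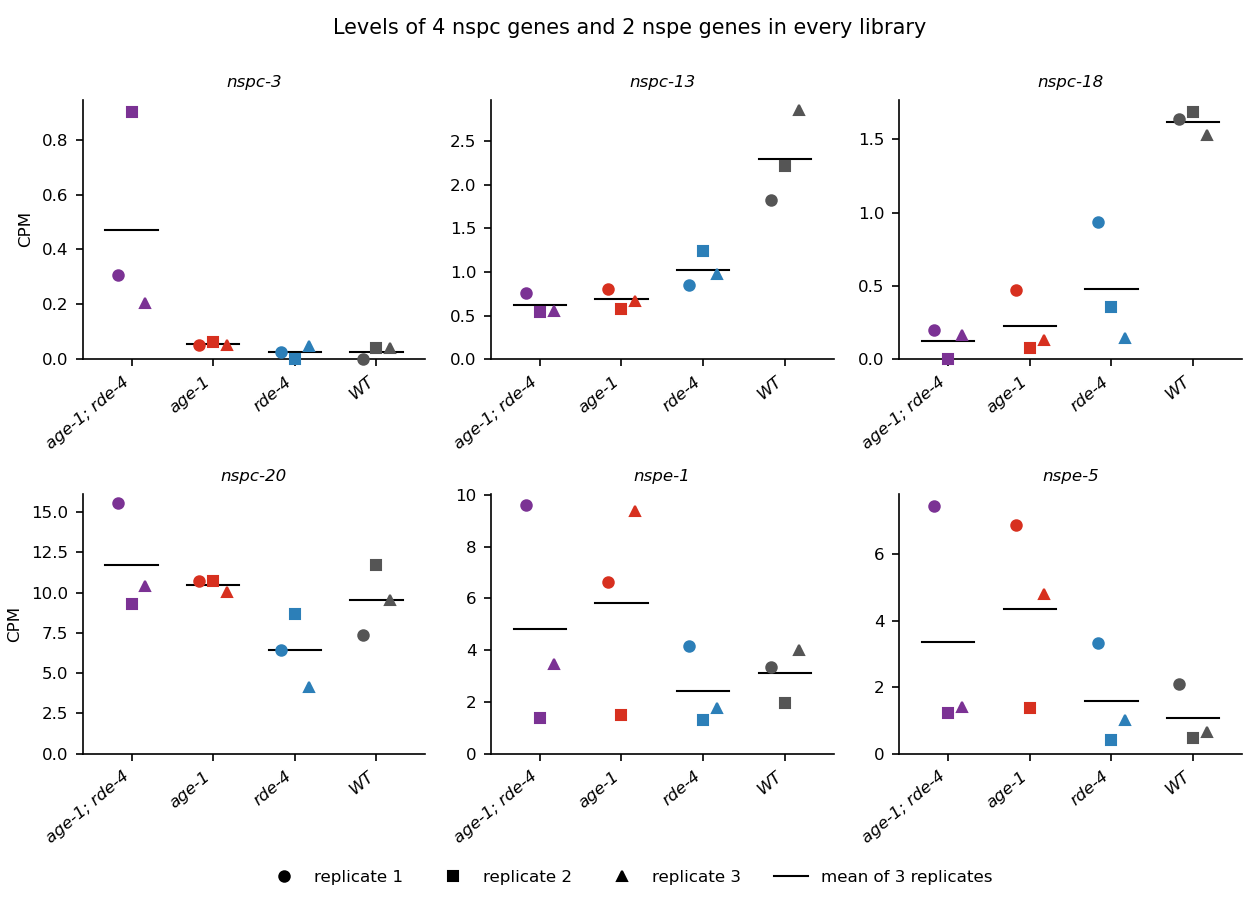
CPM (y axis, from 0) of nspc-3, nspc-13, nspc-18, nspc-20, nspe-1 and nspe-5 in every library by strain (x axis), with symbols for the replicate number and bars for the mean. WT libraries are the highest for nspc-13 (1.82 to 2.86 CPM) and nspc-18 (1.53 to 1.69 CPM), and replicate 2 is the lowest for nspe-1 in each strain.

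No nspe or nspb gene passed edgeR's test in any comparison, while DESeq2 called nspb-10 lower in age-1 mutants. nspe-1 had 9.62, 1.40 and 3.47 CPM in double mutants, 6.65, 1.48 and 9.39 CPM in age-1 mutants and 4.18, 1.30 and 1.78 CPM in rde-4 mutants, against 3.35, 1.98 and 4.01 CPM in WT. nspe-5 had 7.46, 1.22 and 1.42 CPM in double mutants, 6.89, 1.36 and 4.81 CPM in age-1 mutants and 3.33, 0.408 and 1.01 CPM in rde-4 mutants, against 2.09, 0.466 and 0.651 CPM in WT. Both were lowest in replicate 2 of each strain and overlapped between strains, with changes in age-1 mutants of 0.91 (SE 0.71, adjusted p = 0.404) for nspe-1 and 2.02 (SE 0.91, adjusted p = 0.143) for nspe-5. nspb-10 had 9, 5 and 0 counts in double mutants, 2, 2 and 0 in age-1 mutants and 11, 17 and 16 in rde-4 mutants, against 10, 12 and 18 counts in WT, and its change in age-1 mutants was -3.26 (SE 1.07, adjusted p = 0.0576). This gene passed the filter on low counts through rde-4 and WT libraries alone. It was thus tested because it was high there, and its lower level in age-1 mutants is a description. nspb-1, which overlaps irld-7 on the opposite strand, had 20, 0 and 0 counts in double mutants, 7, 0 and 13 in age-1 mutants and 7, 5 and 0 in rde-4 mutants, against 11, 9 and 6 counts in WT.

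Removing rde-4 from the age-1 background called no member in edgeR's test, 0 higher and 0 lower of 45, where 0.317% of all genes were called higher and 0.108% lower. At an unadjusted p under 0.05 there were 1 higher and 4 lower, where 5.22% and 5.82% of all genes were, and DESeq2 called nspd-10 lower, as it did 0.944% of all genes. The 1 higher was nspc-3, which passed the filter on low counts through its double-mutant libraries alone, so this is a description. The family sums differed by -0.92 for nspa (95% interval -1.86 to 0.02, adjusted p = 0.464), -0.80 for nspb (-2.26 to 0.66), 0.09 for nspc (-0.51 to 0.68), -0.33 for nspd (-1.16 to 0.50) and -0.32 for nspe (-1.79 to 1.16), and none of the 5 was called, against 0.425% of the rows. nspd-10 had the smallest adjusted p of its family, at -1.18 on the log2 scale (SE 0.37, adjusted p = 0.243), with no overlap between double mutants and age-1 mutants. The 2 strains also did not overlap for nspa-3, nspa-5, nspa-6, nspa-7 and nspa-8, all lower in double mutants, and for nspc-3, higher there. How many of all genes did so was not counted.

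Adding age-1 to the rde-4 background likewise called 0 of 45 members in edgeR's test, where 1.34% of all genes were called higher and 0.245% lower. There were 3 higher and 1 lower at an unadjusted p under 0.05, where 8.58% and 5.47% of all genes were, and DESeq2 called nspc-3 and nspc-20 higher, as it did 3.39% of all genes. nspc-3 was also among the 3. It was tested only because it was high in double mutants, so its place in both counts is a description. The sums differed by -0.01 for nspa (95% interval -0.95 to 0.93), -1.31 for nspb (-2.77 to 0.14), 0.43 for nspc (-0.17 to 1.03), 0.11 for nspd (-0.72 to 0.94) and 0.99 for nspe (-0.51 to 2.49), and none was called, against 1.63% of the rows. Without replicate 1 of the double mutants the nspb sum was called at -2.79 (adjusted p = 0.0391). For nspa and nspd these intervals are wide enough to hold changes of over 1.5-fold in either direction.

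The interaction asks whether the effect of rde-4(ne301) differed between the age-1 and the WT background. No member was called in edgeR's test, where 0.0538% of all genes were called with a positive and 0.0597% with a negative interaction, and none of the family sums, against 0.114% of the rows. At an unadjusted p under 0.05 there were 2 positive and 12 negative members, where 3.8% and 8.17% of all genes were. DESeq2 called 5 negative ones, nspa-5, nspa-6, nspa-7, nspd-9 and nspd-10, where it called 1.37% of all genes negative. It also called the nspa sum. The largest family value was that of nspa at -2.31 (SE 0.62, adjusted p = 0.209), followed by nspd at -1.36 (SE 0.54, adjusted p = 0.363). Among single genes nspa-5 stood at -3.11 (SE 0.59, adjusted p = 0.0962): its rde-4 effect was 2.21 in the WT background and -0.90 in the age-1 background. Without replicate 1 of the double mutants it was called at -3.69 (adjusted p = 0.0266).

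Transcripts of sperm moved with the nspa and nspd families. The 35 MSP genes summed to 1955, 860 and 818 CPM in double mutants, 2319, 2306 and 2174 CPM in age-1 mutants and 1573, 1466 and 563 CPM in rde-4 mutants, against 428, 1352 and 631 CPM in WT. A list of 32 other sperm and spermatogenesis genes, all of which passed the filter, summed to 536, 400 and 361 CPM in double mutants, 468, 559 and 467 CPM in age-1 mutants and 433, 479 and 261 CPM in rde-4 mutants, against 196, 320 and 221 CPM in WT. WT replicate 2 was the highest and rde-4 replicate 3 the lowest library of its strain in these sums, as in the nspd sum. In age-1 mutants 21 of the 32 sperm genes and 17 of 33 tested MSP genes were called higher and none lower, with medians of 1.66 and 1.54, in rde-4 mutants 6 and 1 (medians 0.84 and 0.58), and in double mutants 12 and 1 (medians 1.22 and 0.64), with 1 sperm gene lower in double mutants. Of all genes tested, 12.2% were called higher in age-1 mutants, 3.63% in rde-4 mutants and 8.95% in double mutants. In the interaction, 30 of the 32 sperm genes and all 33 tested MSP genes had fitted values below 0, with medians of -1.41 and -1.50. At an unadjusted p under 0.05, 17 and 19 of them were negative, where 8.17% of all genes were. The part that more sperm RNA in the mutant libraries had in the nspa and nspd results was not tested.

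Set against the sperm transcripts of the same library, the families did not stay in 1 proportion. For each 100 CPM of MSP transcripts there were 0.920, 0.937 and 0.821 CPM of nspa in double mutants, 0.814, 1.04 and 0.880 CPM in age-1 mutants and 0.923, 0.864 and 1.03 CPM in rde-4 mutants, against 0.584, 0.493 and 0.547 CPM in WT, with no overlap between WT and the mutants. For nspd the same ratio was 17.9, 21.3 and 20.2 CPM in double mutants, against 12.4, 13.4 and 12.9 CPM in age-1 mutants, and 18.2, 17.1 and 19.6 CPM in rde-4 mutants, against 15.9, 12.1 and 13.3 CPM in WT. Here the libraries with rde-4(ne301) were the higher ones. The choice of denominator mattered: per 100 CPM of the 32 other sperm genes, nspd stood at 65.4, 45.8 and 45.7 CPM in double mutants, 61.5, 55.2 and 60.3 CPM in age-1 mutants and 66.0, 52.4 and 42.2 CPM in rde-4 mutants, against 34.7, 51.1 and 38.01 CPM in WT, and strains with and without the allele overlapped. nspa per 100 CPM of that list was 3.36, 2.02 and 1.86 CPM in double mutants, 4.03, 4.28 and 4.10 CPM in age-1 mutants and 3.35, 2.65 and 2.23 CPM in rde-4 mutants, against 1.27, 2.09 and 1.56 CPM in WT. With this denominator double mutants overlapped WT, while age-1 mutants and rde-4 mutants did not. Neither denominator stayed the same between strains. In rde-4 mutants, log2 fold changes over WT ran from -0.69 to 3.30 among the 32 genes, which include ssp-16, and from -0.31 to 2.05 among tested MSP genes. These ratios are descriptions without a test.

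**Figure D5:**
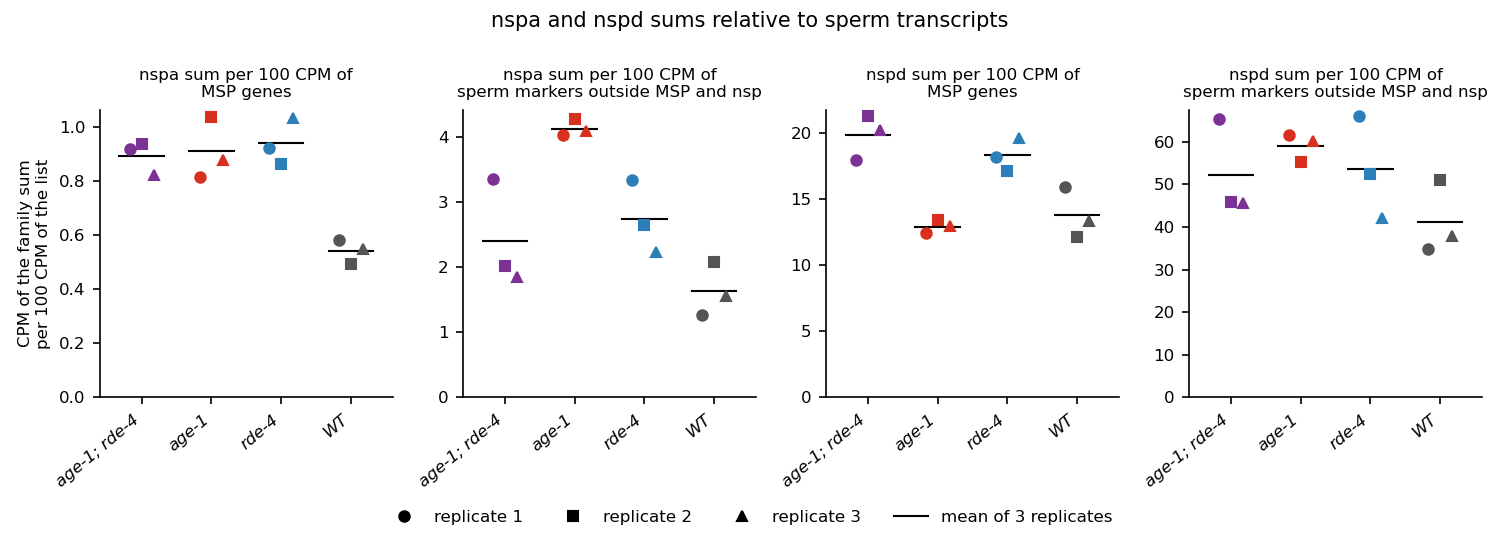
CPM of the nspa and nspd sums for each 100 CPM of MSP genes or of 32 other sperm genes (y axes, from 0) in every library by strain (x axis), with symbols for the replicate number and bars for the mean. Relative to MSP genes, nspa is at 0.493 to 0.584 in WT and 0.814 to 1.04 in the mutants, and nspd is higher in the strains with rde-4(ne301). With the other sperm genes as denominator, nspa in double mutants overlaps WT and the nspd split is not seen.

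Other marker lists moved less, or in other comparisons. Of 18 oocyte genes none was called over WT in any mutant strain (medians -0.17 in double mutants, -0.17 in age-1 mutants and 0.05 in rde-4 mutants), nor any of the 6 vitellogenins (medians -0.22, -0.35 and -0.39 in the same order), and 1 of 12 germ cell genes was lower in age-1 mutants. Of 115 tested col genes, which encode cuticle collagens, 11 were higher in double mutants, 30 in age-1 mutants and 6 in rde-4 mutants, and none was lower. Over all genes tested, 8.95%, 12.2% and 3.63% were called higher in these strains, and 3.17%, 2.58% and 0.866% lower. These shares are the background for every list here. In age-1 mutants 4 of 10 muscle, 3 of 10 neuronal, 1 of 4 male and seminal fluid, 1 of 10 intestinal and 0 of 8 pharyngeal genes were higher. The 10 intestinal genes summed to 943 to 1351 CPM in double mutants, 1375 to 1561 CPM in age-1 mutants and 1221 to 1373 CPM in rde-4 mutants, against 1804 to 1958 CPM in WT, so that every mutant library was below the WT libraries. Of the 10, 3 were called lower in double mutants, 1 in age-1 mutants and 1 in rde-4 mutants, and 1 was called higher in double mutants. The part of this shift in the nsp results was not tested. The list of other nematode-specific peptides, 17 genes of which 11 were tested, summed to 675 to 775 CPM in double mutants, 678 to 785 CPM in age-1 mutants and 543 to 569 CPM in rde-4 mutants, against 782 to 830 CPM in WT, and 5 of the 11 were called lower in rde-4 mutants.

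Among 15235 other protein-coding genes, the 3 whose log2 CPM followed the nspd sum most closely over the 12 libraries were F26B1.8 (Pearson r = 0.994), msp-36 (0.992) and C31H1.5 (0.991), and those closest to the nspa sum were F17E9.5 (0.983), F26B1.8 (0.982) and decr-1.3 (0.98). The other families had no neighbour as close: the best were str-168 for nspb (0.910), Y37D8A.2 for nspc (0.858) and T05C12.15 for nspe (0.866). These correlations run over libraries that share strains and populations and are given as descriptions.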

How the data were processed

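Read counts per gene, deposited by the authors for 12 libraries, were used. Per the labels and the study's methods, reads of rRNA-depleted, strand-specific libraries were aligned to WBcel235 with HISAT2 2.0.5, and StringTie is also named. Identifiers were matched to gene names through the RefSeq table of WBcel235 (45305 by locus tag) or the Ensembl annotation (876), and 472 stayed unmatched. The library totals give counting errors far below the spread between populations for all but the lowest genes. Replicates are populations that the labels call biological replicates, and p-values measure the spread between them. No 2 replicates were copies (chi-square per gene 27.2 to 187).

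Counts were tested in R 4.3.3 with edgeR 4.0.16 (TMM, filterByExpr, quasi-likelihood F test, 1 model of all 12 libraries, 16741 genes, Benjamini-Hochberg threshold 0.05). The SE is the absolute log2 fold change divided by the square root of F, and 95% intervals use the t distribution with the test's own degrees of freedom (12.5 for the family sums). A gene passed the filter with at least 0.128 CPM in 3 libraries. Family sums were tested in the same model after replacing their members' counts. In counts simulated for rde-4 against WT over 16741 genes, 14.9%, 37.3% and 75.8% of genes changed 1.5-, 2- and 4-fold were recovered, with 3.41% false calls. Alternatives were RLE size factors, DESeq2 1.42.0, no filter, the compared groups alone, a replicate block, coding genes alone, sums over filtered members and leaving out each library.

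Named with values in every library were the 2 members with the highest mean CPM in each family, every member called in any comparison, and any called against the direction of its family. Members, gene lists and this rule were chosen with earlier results of these data known. Marker lists cover sperm, MSP, other nematode-specific peptide, oocyte, yolk, germ cell, col, intestine, pharynx, muscle, neuron and male genes.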

Additional observations from a re-analysis of the deposited data

How the results depend on the processing

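None of the 26 calls of single members turned direction in 468 alternative values, of which 340 kept the call and 128 lost it. Fits without 1 of the 12 libraries gave 0 to 6 members higher and 0 to 1 lower in rde-4 mutants against WT, 2 to 15 and 1 to 2 in age-1 mutants, and 1 to 12 and 1 to 3 in double mutants, with 0 to 2 family sums called in each. In these fits 1.33% to 5.48% of all genes were higher and 0.234% to 1.2% lower in rde-4 mutants. The shares were 1.79% to 17.1% and 0.164% to 7.33% in age-1 mutants, and 4.64% to 11.9% and 1.09% to 3.03% in double mutants. Against rde-4 mutants, double mutants had 0 to 1 members higher and 0 to 1 family sums called, and the interaction had 0 to 1 members lower. There 0.404% to 1.85% of all genes were higher and 0.0117% to 0.204% had a negative interaction.

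DESeq2 called 7 members higher, 3 lower and 1 family sum in rde-4 mutants, 4 lower in age-1 mutants, 10 higher and 1 family sum in double mutants, 1 lower in double mutants against age-1 mutants, 2 higher against rde-4 mutants, and 5 lower and 1 family sum for the interaction. Of all genes, it called 6.08% higher and 1.79% lower in rde-4 mutants, 6.64% lower in age-1 mutants and 11.6% higher in double mutants. The other shares, in the order of those comparisons, were 0.944%, 3.39% and 1.37%. With no filter on low counts there were 1 higher and 0 lower in rde-4 mutants, 3 higher and 1 family sum in age-1 mutants, and 3 higher and 1 lower in double mutants. Of all genes, 1.32% were higher and 0.31% lower in rde-4 mutants, 3.9% higher in age-1 mutants, and 4.02% higher and 1.19% lower in double mutants. With the compared groups alone there were 1 higher and 0 lower in rde-4 mutants, 2 lower in age-1 mutants and 3 higher in double mutants. The shares of all genes were 2.08%, 0.54%, 1.66% and 7.43% in that order. RLE size factors and coding genes alone each gave 2 lower in age-1 mutants, where 3.33% and 2.24% of all genes were. The cause of these differences was not tested.

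Same-numbered libraries of different strains shared deviations from their group means in part (r of -0.0235 to 0.367, with 12 of 18 pairs over 0.1). Libraries with different numbers gave r of -0.386 to 0.19. The main fit held no replicate block, since the study's methods name none, so deviations shared by a replicate number stayed in its spread. With a replicate block there were 2 members lower in rde-4 mutants, 3 lower in age-1 mutants, 9 higher and 2 family sums (nspa and nspd) in double mutants, and 1 lower for the interaction (nspa-5). Of all genes, the block called 1.9% lower in rde-4 mutants, 9.59% lower in age-1 mutants and 12.5% higher in double mutants. It called 0.287% with a negative interaction. The block also called nspe-5 in age-1 mutants (2.12, adjusted p = 0.00324) and double mutants (1.501, adjusted p = 0.0121), and the nspe sum in age-1 mutants (1.13, adjusted p = 0.0360), which made 3 family sums there, and nspb-10 and nspc-18 lower in age-1 mutants. The nspa sum of double mutants over rde-4 mutants, at -0.01, was at 0.0131 with the replicate block, 0.00112 with the groups compared alone and 0.0228 with coding genes alone, and the nspe sum of rde-4 mutants over WT was at 0.0111 with the groups compared alone.

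Without 1 library, sums that were not called could change sign: in rde-4 mutants nspb ranged from -0.34 to 0.19 and nspe from -0.80 to 0.34. In double mutants nspe ranged from -0.10 to 1.37 over WT, from -1.39 to 0.10 over age-1 mutants and from -0.10 to 1.83 over rde-4 mutants. The nspc sum of double mutants over age-1 mutants ranged from -0.22 to 0.26, the nspa and nspd sums over rde-4 mutants from -0.58 to 0.31 and from -0.32 to 0.43, and the nspe interaction from -1.38 to 0.54. Depth limited nspb, nspc-3 and nspc-18, whose libraries reached 0 counts.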
